A study of Rattus norvegicus with 18 samples.

Results

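The comparison described here is of NRK-52E cultures kept for 72 h after the start of a vehicle exposure with those kept for 24 h. NRK-52E is an established line of rat kidney epithelium, labelled as proximal tubule cells of the Osborne-Mendel strain. The 6 arrays were chosen by their sample titles, which name DMSO, the time and the replicate, and they are part of 18 arrays in the series. The cells were grown to confluence in medium with serum, and both groups then received 0.1% DMSO and no other agent for 72 h (3 arrays) or 24 h (3 arrays). For reference, 4 further groups of 3 arrays each were read: chlorothalonil, a fungicide, at 1.1 µM in 0.1% DMSO for 6, 24 and 72 h, and DMSO alone for 6 h. The chlorothalonil arrays at 6 h entered only the shared estimate of the spread. Total RNA was measured on an Affymetrix rat array, on which a set of short probes reports each transcript, and the values are log2 signals. The 3 arrays of a group are labelled as biological replicates, and 3 studies are stated for each time, so p-values measure the spread between those cultures. No label gives an array batch, and each group has its own time, so time in culture and array batch cannot be told apart. The labels do not say whether medium was changed between 24 and 72 h.

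A confluent epithelial sheet is known to slow its growth as cells touch, to lay down matrix at its base, to use up nutrients and growth factors of the medium, and to set its lipid and sugar metabolism by what the medium still holds. Sterol synthesis is governed by the SREBP factors, which switch their target genes on when sterol in the endoplasmic reticulum is short. Glycolytic enzymes are in part targets of the hypoxia-inducible factor HIF, and amino acid shortage acts through the factor ATF4. These are general facts about cells and not readings of these arrays.

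Between 24 and 72 h the DMSO cultures changed broadly. The enzymes of cholesterol and fatty acid synthesis, glycolysis, amino acid supply and the proteasome were lower at 72 h. Fibrillar collagens, elastin and other matrix genes, complement genes, lysosomal hydrolases, antigen presentation genes and several genes linked to quiescence were higher. Calls in the proteasome, other matrix, lysosomal, antigen presentation and quiescence lists were far fewer under one of the scalings below. Genes of mitosis and DNA replication had medians of −0.29 and −0.09 on the log2 scale, with larger falls in some members; that of replication was 0.06 under one of the scalings below. Of 9149 genes tested, 5550 passed (60.7%, limma, adjusted p under 0.05), with 3324 higher at 72 h (36.3%) and 2226 lower (24.3%). At least a 2-fold difference was reached by 549 of the higher and 499 of the lower genes, and an 8-fold one by 39 and 35. The counts of each gene list below are to be read against those shares of all genes. The median log2 change of all genes was 0.079.

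The scale itself limits small changes. When each array was scaled to the poly-A controls, bacterial transcripts added to the RNA in fixed amounts, 455 genes were higher and 938 lower, and the median of all genes was −0.14. The poly-A level of the 3 arrays at 72 h lay between 9.92 and 10.14, against 8.97 in replicate 1 and up to 10.28 in the other arrays at 24 h (exact permutation p = 0.9). Without DMSO 24 h replicate 1, a check chosen after seeing the data, poly-A scaling gave 2374 higher and 688 lower genes and a median of 0.27. That array is called the low array below, and where it decides a count under poly-A scaling the count without it is given too. Small changes of the size of these shifts therefore have no settled sign, and the lists whose calls depend on this are named as such. The difference between 3′ and 5′ probe sets of Actb, a sign of RNA integrity and labelling, was 1.51 to 2.02 at 72 h and 1.23 to 1.32 at 24 h, and that of Gapdh was −0.13 to −0.04 at 72 h and −0.23 on all arrays at 24 h. Both gave an exact permutation p = 0.1, the smallest that 3 against 3 arrays allow, and their part in the changes below was not tested.

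**Figure D1:**
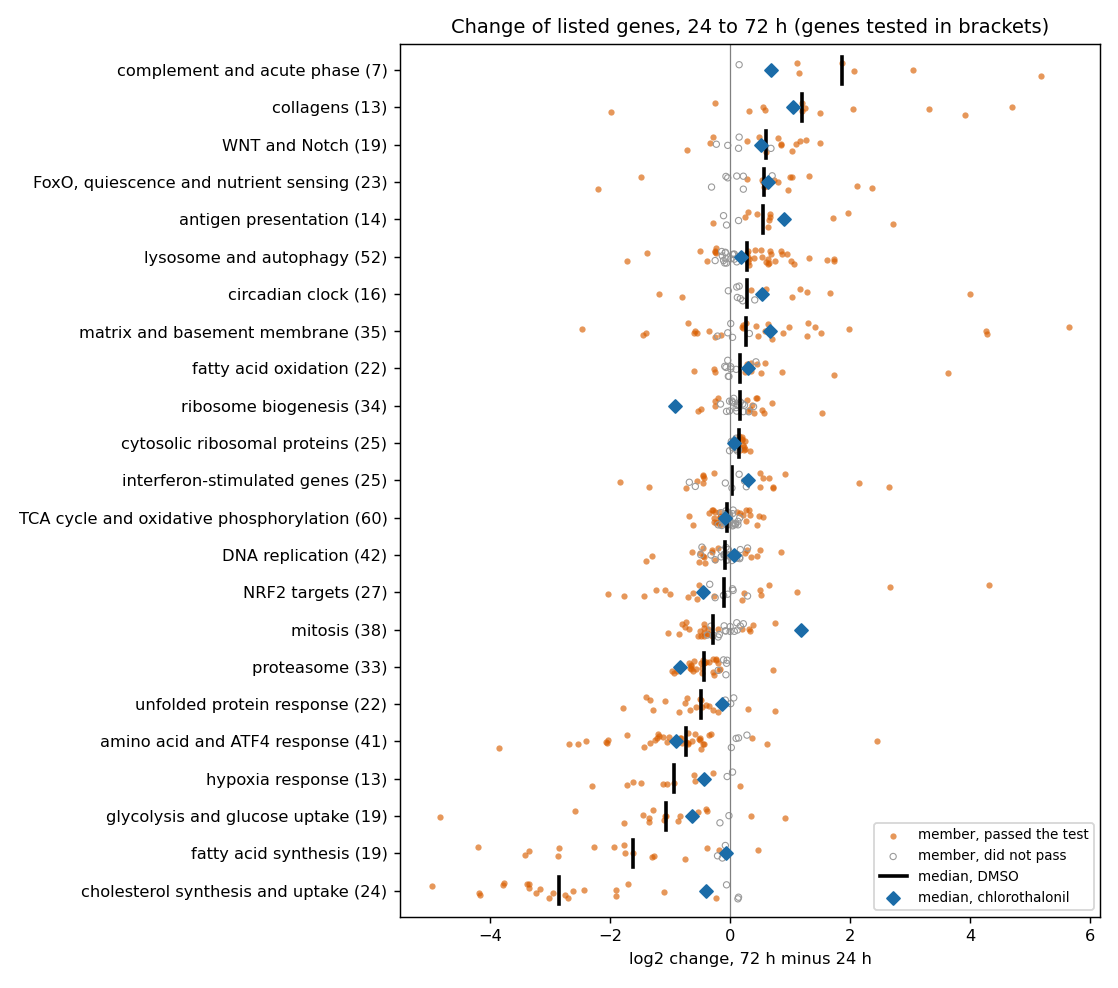
Log2 change between 72 h and 24 h of the genes in 23 lists, 1 point per gene tested in DMSO, with the DMSO median as a bar and the chlorothalonil median as a diamond. Sterol synthesis stands farthest to the left in DMSO (median −2.85) and near −0.40 in chlorothalonil, and collagens and complement lie to the right.

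Cholesterol synthesis was lower throughout. All 17 tested enzymes from acetyl-CoA to cholesterol were lower at 72 h, 7 of 7 in the steps to squalene (median log2 change −3.24) and 10 of 10 in the steps beyond it (median −3.25). Over the whole list of synthesis, uptake and control, 21 of 24 tested genes were lower and 0 higher (median −2.85), and 20 were lower with poly-A scaling. Mvd, the decarboxylase that makes isopentenyl diphosphate, read 6.55, 6.71 and 6.36 at 72 h, against 11.46, 11.62 and 11.43 at 24 h. The groups lie far apart, with a log2 change of −4.97 ± 0.14 (SE) and an adjusted p of 7.62e-13. Mvk, mevalonate kinase, read 5.22, 5.69 and 5.03 at 72 h and 9.40, 9.63 and 9.39 at 24 h (−4.16 ± 0.15). Tm7sf2, a sterol reductase, read 7.30, 7.15 and 7.48 at 72 h and 11.46, 11.60 and 11.41 at 24 h (−4.18 ± 0.32). In each of the 3 genes the lowest array at 24 h was above the highest at 72 h. Genes among the 12 largest changes in a direction were picked from those without overlap, so separation is no added support for them. Hsd17b7 (−3.78), a ketosteroid reductase of the same pathway, and Idi1 (−3.77), the isomerase that follows Mvd, came next, and Sqle, squalene epoxidase, fell by 2.95. Sc5d, the desaturase of a late step, had the smallest change of the 17 (−1.70).

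The control genes of that pathway moved unequally. Insig1 encodes the anchor that holds SREBP back and is itself an SREBP target. It read 10.56, 10.61 and 10.44 at 72 h and 13.19, 13.15 and 13.14 at 24 h (−2.62 ± 0.084, limma, adjusted p = 3.1e-12). Srebf2, which encodes SREBP-2, fell by 0.23 only, a call lost under several settings, and Scap (0.14), its escort protein, did not pass. Srebf1, the factor of fatty acid synthesis, read 7.14, 7.30 and 7.21 at 72 h and 7.54, 7.45 and 7.29 at 24 h (−0.21 ± 0.15, adjusted p = 0.238), and its groups overlap. Abca1, the cholesterol exporter that rises with sterol load through LXR, was lower on the probe set used (−1.11), but its other set changed by 0.48 and did not pass, and the call was lost with both averaged.

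**Figure D2:**
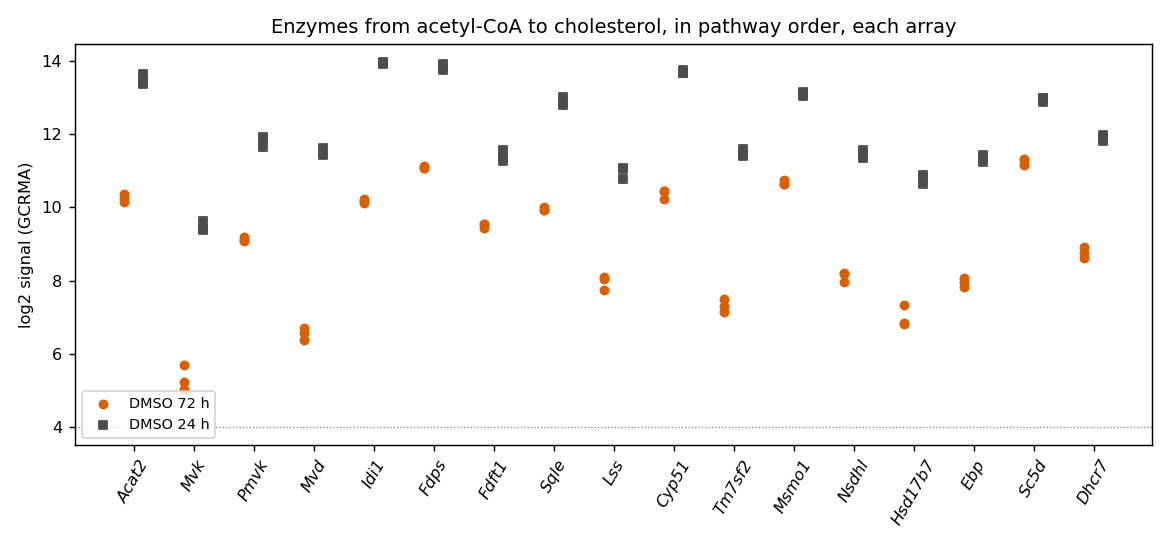
Log2 signal of 17 enzymes of cholesterol synthesis in pathway order, each DMSO array as a point, 72 h left of 24 h for every gene. The dotted line is the background level of log2 4; for all 17 enzymes the arrays at 72 h lie below those at 24 h.

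Fatty acid synthesis changed with it, with 15 of 19 tested genes lower and 1 higher (median −1.62; 13 lower with poly-A scaling). Scd, the desaturase that makes oleate, read 2.42, 2.42 and 2.43 at 72 h, below the background of log2 4, and 6.51, 6.73 and 6.62 at 24 h. It was at least 6.15-fold lower at 72 h (adjusted p = 1.13e-16). Acss2, which makes acetyl-CoA from acetate, read 9.29, 9.18 and 9.14 at 72 h and 12.52, 12.61 and 12.52 at 24 h (−3.35 ± 0.091). Both genes separate the times without overlap. Fads2 (−3.42), the first desaturase of long-chain polyunsaturated fats, Lpin1 (−2.87), a phosphatidate phosphatase, Elovl6 (−2.86), an elongase, and Fasn (−2.27), fatty acid synthase, whose probe set type can also bind related transcripts, were lower too. Dgat1, an enzyme of triglyceride storage, was the gene that rose (0.47). Pgd, an NADPH-making enzyme of the pentose phosphate pathway, fell by 1.44.

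These levels were not on a steady course. In DMSO the mean of Mvd was 8.84 at 6 h, 11.50 at 24 h and 6.54 at 72 h, and that of Acss2 was 8.03, 12.55 and 9.21. Between 6 and 24 h, 22 of the 24 sterol genes had been higher at the later time and 0 lower (median 1.31). Of the 19 fatty acid genes, 16 had been higher and 1 lower (median 1.34). Of all 9149 genes 72.9% passed in that interval, 3010 higher at 24 h and 3663 lower. That earlier comparison shares the DMSO arrays at 24 h, so a high value there enters both. The interval to 72 h thus starts from the highest of the 3 times in these genes. In chlorothalonil the mean of Mvd was 7.70, 8.53 and 7.63 at 6, 24 and 72 h.

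Genes of fatty acid use went the other way in part. Of 22 tested, 10 were higher and 3 lower (median 0.17, and −0.05 with poly-A scaling, where 2 passed as higher and 0 as lower, and 7 and 0 without the low array). Angptl4, a secreted lipase inhibitor and PPAR target, read 5.91, 5.84 and 6.17 at 72 h against 2.34, 2.33 and 2.37 at 24 h, at least 3.93-fold higher (adjusted p = 1.05e-08). Pdk4, the kinase that closes pyruvate dehydrogenase, read 9.22, 9.07 and 9.28 at 72 h and 7.49, 7.51 and 7.40 at 24 h (1.73 ± 0.20). Cpt1a, the carnitine transferase that gates mitochondrial fat import, rose by 0.87 on the probe set used, while its other set changed by −0.28 and did not pass. The groups of these 3 genes do not overlap, while 9 genes of the list did not pass the test. The enzymes of beta oxidation proper were mixed, with 5 of 14 higher, among them Hadh (0.58), and 2 lower, among them Eci1 (−0.61). Gk, glycerol kinase, was among the 12 largest rises of all genes, with 7.10, 7.66 and 8.0 at 72 h and 2.64, 3.23 and 2.62 at 24 h, at least 12-fold higher.

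Glycolysis and glucose uptake formed the next block of lower genes. Of 19 tested, 15 were lower at 72 h and 2 higher (median −1.07), and 12 were lower with poly-A scaling. Aldoc, the C form of aldolase, read 3.51, 3.62 and 4.2 at 72 h and 8.97, 8.56 and 8.33 at 24 h, a log2 change of −4.84 ± 0.31 (adjusted p = 6.96e-09), with 2 of the arrays at 72 h under the background level. Hk2, the inducible hexokinase, read 2.89, 2.88 and 2.91 at 72 h, below background, and 5.54, 6.44 and 4.43 at 24 h, at least 2.77-fold lower. Slc2a1, the basal glucose transporter, read 8.6, 8.67 and 8.62 at 72 h and 10.31, 10.69 and 10.20 at 24 h (−1.77 ± 0.11). All 3 genes separate the times. Gapdh, often used as a constant reference, read 13.82, 13.89 and 13.70 at 72 h and 15.17, 15.18 and 15.11 at 24 h (−1.35 ± 0.063, adjusted p = 1.65e-10). Pfkp (−1.45) and Pfkl (−1.36), forms of phosphofructokinase, were also lower, and Pfkfb4, which makes its activator, read 4.0, 4.72 and 4.43 at 72 h and 8.83, 9.07 and 8.95 at 24 h (−4.57 ± 0.21). The exceptions were Slc16a1 (0.92), the lactate and pyruvate carrier, and Pfkfb3 (0.34).

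Further targets of HIF were lower as well, 10 of 13 tested with 1 higher (median −0.94; 7 lower with poly-A scaling). Higd1a, a mitochondrial protein induced by hypoxia, read 10.99, 11.01 and 11.09 at 72 h and 13.24, 13.56 and 13.18 at 24 h (−2.30 ± 0.088), though its other probe set changed by −0.32 and did not pass. Bnip3 (−1.72), a mitophagy receptor, Pdk1 (−1.62), a kinase of pyruvate dehydrogenase, and Ankrd37 (−1.12) changed the same way, as did Vegfa (−0.94). The other probe set of Pdk1 changed by 0.03 and did not pass. Hif1a, the factor's own gene, passed at 0.16 but had a log2 change of −0.06 with poly-A scaling. The tricarboxylic acid cycle and respiratory chain had 10 of 60 genes higher and 17 lower, and 0 higher and 1 lower with poly-A scaling (3 and 0 without the low array).

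The promoters of 3 lower genes of these lists are shown because they carry ACGTG, the core of the hypoxia response element, upstream of the gene start. The sequences are from RefSeq (GRCr8), each 60 bases of the upstream region on the gene's strand, with the motif on either strand in capitals.
Aldoc, chr10:63715484-63715543, + strand: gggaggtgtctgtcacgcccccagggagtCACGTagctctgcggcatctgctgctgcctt
Higd1a, chr8:130401047-130401106, − strand: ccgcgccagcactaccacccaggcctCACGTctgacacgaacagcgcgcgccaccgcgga
Slc2a1, chr5:138002445-138002504, + strand: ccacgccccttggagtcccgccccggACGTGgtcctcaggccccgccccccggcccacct

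In windows of 300 bases, 250 before to 50 after the start, the core was found in 10 of the 15 glycolysis genes tested that have 1 window (66.7%), in 7 of the 12 of these called lower (58.3%), and in 9 of 9 such HIF targets. It was found in 27.6% of the 7279 tested genes with 1 window and in 19.3% of all 33469 windows. It also lies within the E-box CACGTG. A match describes these letters and shows neither binding nor a cause.

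Amino acid supply and the ATF4 response were lower in nearly the whole list, 34 of 41 tested, with 3 higher (median −0.73; 24 lower and 1 higher with poly-A scaling). Trib3, a pseudokinase induced by ATF4 and CHOP, read 4.94, 4.44 and 5.27 at 72 h and 8.58, 9.01 and 8.6 at 24 h (−3.85 ± 0.17, adjusted p = 1.39e-10). Chac1, which degrades glutathione, read 5.91, 5.98 and 5.91 at 72 h and 8.61, 8.73 and 8.52 at 24 h (−2.69 ± 0.087). Slc1a4, a carrier of neutral amino acids, read 7.37, 7.19 and 7.44 at 72 h and 9.73, 10.02 and 9.84 at 24 h (−2.53 ± 0.098). No array at 72 h reached the 24 h range in these genes. Mthfd2 (−2.41), of mitochondrial folate metabolism, was lower, and Slc7a11, the cystine carrier, was at least 1.8-fold lower, with 2.79, 2.78 and 2.84 at 72 h and 5.17, 4.88 and 4.50 at 24 h. All 12 tRNA synthetases of the list were lower (median −0.58), from Sars1 (−0.32) to Aars1 (−1.21). Sesn2, a leucine sensor, fell by 1.22, with −0.43 and no call on its other probe set, and Atf4 itself fell by 1.02. Against this, Nupr1, a stress-induced chromatin protein placed in the same list, read 10.93, 10.95 and 11.09 at 72 h and 8.80, 8.51 and 8.34 at 24 h (2.44 ± 0.11). Gcat, which breaks down threonine to glycine, was among the 12 largest falls (−4.32).

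The 4 stretches below come from members that fell and hold TTGCATCA, the core of the C/EBP-ATF response element bound by ATF4, upstream of the start (RefSeq, GRCr8, gene's strand, motif on either strand in capitals).
Chac1, chr3:126795938-126795997, + strand: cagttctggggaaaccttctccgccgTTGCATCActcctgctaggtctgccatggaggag
Slc1a4, chr14:98761753-98761812, − strand: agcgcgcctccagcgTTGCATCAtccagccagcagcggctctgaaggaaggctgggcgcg
Aars1, chr19:55908344-55908403, + strand: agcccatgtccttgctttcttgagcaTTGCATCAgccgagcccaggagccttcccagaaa
Nars1, chr18:60275783-60275842, − strand: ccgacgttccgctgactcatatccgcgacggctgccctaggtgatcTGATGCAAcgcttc

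The core occurred in 10 of 36 tested members with 1 window (27.8%), in 0.604% of tested genes with 1 window and in 0.795% of all windows. For the sterol genes, TCACNCCAC, the classic sterol regulatory element, was found in 0 of 20 windows of tested members and in 1.12% of all windows, which says only that these letters are not in this window.

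Endoplasmic reticulum chaperones and degradation factors were lower in 17 of 22 tested and higher in 2 (median −0.49), and lower in 9 and higher in 0 with poly-A scaling (6 and 1 without the low array). Ssr1 (−1.79), of the translocon, Sdf2l1 (−1.41), Dnajc3 (−1.34) and Manf (−1.29) had the largest falls, and Sel1l, a scaffold of the degradation ligase, fell by 1.08. Hspa5, the chief chaperone of that compartment, fell by 0.48. The proteasome was lower in 27 of 33 subunits and higher in 1 (median −0.43), and 6 were lower and 0 higher with poly-A scaling (3 and 1 without the low array). Psmb7 (−0.97), Psmd7 (−0.94) and Psmd14 (−0.89) fell most, and Psma3 (0.72) was the subunit that rose. Cytosolic ribosomal proteins passed as higher in 13 of 25 with 0 lower, but the changes are small (median 0.14; Rps16 0.33, Rpl35 0.25), and with poly-A scaling the median was −0.09 and 0 passed. Of 34 factors of ribosome biogenesis, 11 were higher and 5 lower (median 0.16, and −0.06 with poly-A scaling, where 1 was higher, against 5 without the low array). Polr1b, a large subunit of RNA polymerase I, led with 7.11, 6.81 and 7.09 at 72 h and 5.49, 5.72 and 5.23 at 24 h (1.53 ± 0.14).

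Loxl1 and Col1a2, both of the matrix, were among the 12 largest rises. Of 13 tested collagens, 11 were higher and 2 lower (median 1.20; 8 and 1 with poly-A scaling). Col1a2, a chain of collagen I, read 9.90, 10.04 and 10.11 at 72 h and 5.97, 5.41 and 4.61 at 24 h (4.69 ± 0.39, adjusted p = 1.07e-07). Col3a1, of collagen III, read 14.37, 14.46 and 14.53 at 72 h and 10.49, 10.47 and 10.64 at 24 h (3.92 ± 0.13). Col12a1, a collagen that decorates fibrils, read 11.33, 11.48 and 11.47 at 72 h and 8.28, 8.09 and 7.92 at 24 h (3.32 ± 0.14). The arrays of the 2 times stand well apart in all 3. Col1a1 rose by 2.04. The basement membrane chain Col4a1 passed slightly lower (−0.26, a call lost under several settings), and Col14a1 fell by 1.99.

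Among other matrix genes 20 of 35 tested were higher and 10 lower (median 0.26, and 8 and 4 with a median of 0.04 with poly-A scaling, or 17 and 3 without the low array). Loxl1, which crosslinks elastin, read 8.02, 8.03 and 8.0 at 72 h and 2.35, 2.07 and 2.71 at 24 h, at least 16.2-fold higher (adjusted p = 1.7e-12). Eln, elastin, read 11.28, 11.43 and 11.27 at 72 h and 7.41, 7.18 and 6.62 at 24 h (4.26 ± 0.25). Mgp, an inhibitor of calcification, read 10.38, 10.37 and 10.28 at 72 h and 6.25, 6.85 and 5.07 at 24 h (4.28 ± 0.36), on a probe set type that can bind related transcripts. Each of these rose on every array. Agrn, a heparan sulfate proteoglycan of basement membranes, rose by 1.98, and 5 of 6 laminin chains were higher, with Lama3 lower (−1.41). The list's crosslinking and processing enzymes were split, 5 higher and 5 lower of 13, and Loxl2 (−1.46) moved opposite to Loxl1. Fbln2 (−2.47), fibronectin Fn1 (−0.56) and osteopontin Spp1 (−0.60) were lower. Serpine2, an inhibitor of thrombin and plasminogen activators, read 9.89, 9.91 and 10.06 at 72 h and 4.94, 5.43 and 5.04 at 24 h (4.82 ± 0.41). Plaur, the urokinase receptor, fell by 0.75 on a probe set type that can bind related transcripts, while its other probe set changed by −0.05 and did not pass.

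**Figure D3:**
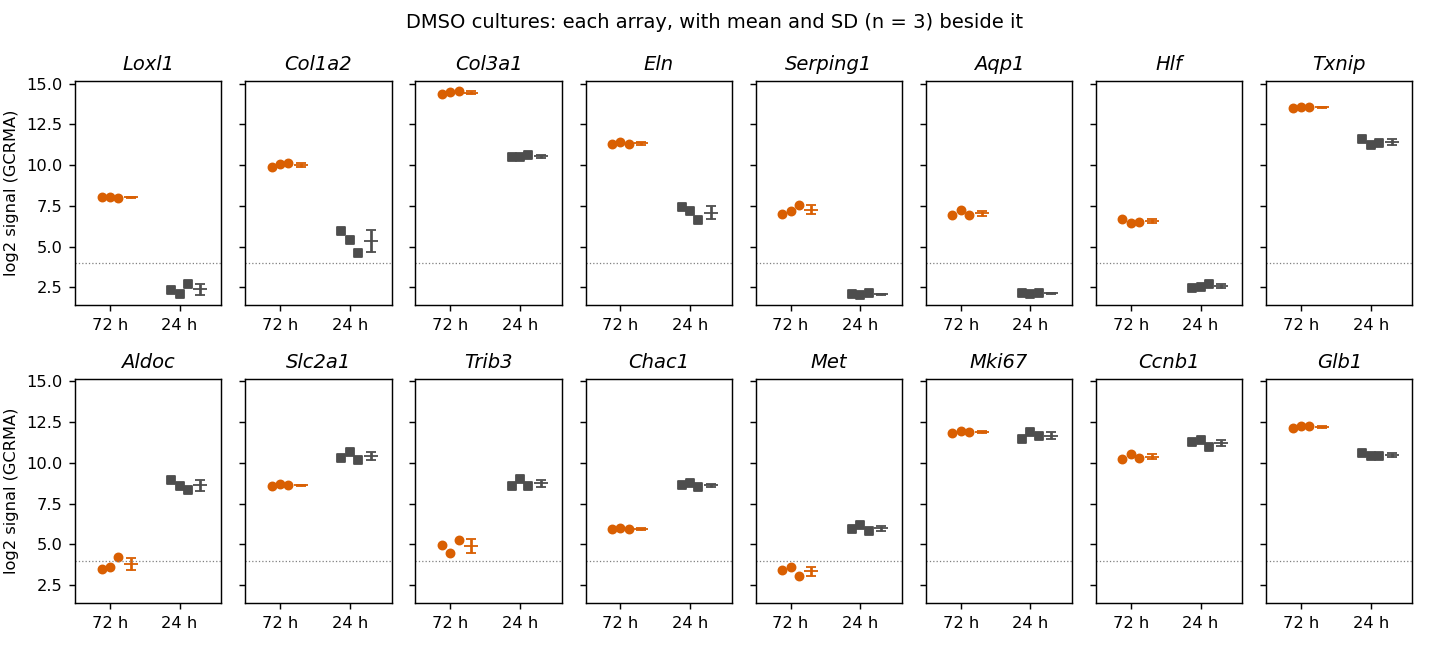
Log2 signal of 16 genes on each DMSO array, 72 h left of 24 h, with the mean and SD (n = 3) beside the points and the background level of log2 4 dotted. Mki67 is the gene of the 16 whose groups overlap; Loxl1, Serping1, Aqp1 and Hlf are under the background level on every array at 24 h, and Met on every array at 72 h.

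Complement and acute phase genes were higher in 6 of 7 tested and lower in 0 (median 1.86), also with poly-A scaling. Serping1, the inhibitor of C1, read 7.0, 7.20 and 7.55 at 72 h and 2.06, 2.03 and 2.12 at 24 h, at least 9.51-fold higher (adjusted p = 6.8e-14). Its target C1s, a protease of the classical pathway, read 9.02, 8.98 and 9.17 at 72 h and 6.30, 6.06 and 5.69 at 24 h (3.04 ± 0.21). Cd55, which protects cells from complement, read 10.14, 10.09 and 10.09 at 72 h and 8.41, 8.13 and 8.21 at 24 h (1.86 ± 0.093). The groups are separate in each. Cp, ceruloplasmin, rose by 2.07 and Saa3, serum amyloid A, by 1.14. The other Cp probe sets changed by 2.53, which was called, and by 0.26, which did not pass. Clu, clusterin, overlapped between the times (0.15 ± 0.098, adjusted p = 0.215).

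Antigen presentation genes, which include MHC class I genes, were higher in 10 of 14 tested and lower in 1 (median 0.54). With poly-A scaling 3 were higher and 0 lower, and 8 and 0 without the low array. Psmb8, an inducible subunit of the immunoproteasome, read 6.15, 6.08 and 6.43 at 72 h and 3.89, 3.80 and 2.80 at 24 h, at least 4.65-fold higher. RT1-S3 (1.72), a class I gene that is hard to tell from its close relatives, and B2m (0.67), the shared light chain, were higher. RT1-CE5, another class I gene, rose by 1.97 on the probe set used, but its other 2 sets changed by 0.03 and 0.26 and did not pass. Interferon-stimulated genes did not move together, with 9 higher and 9 lower of 25 (2 and 4 with poly-A scaling, 9 and 2 without the low array). Lgals3bp (2.64), a secreted glycoprotein, and Ifitm3 (2.14), a membrane protein that blocks virus entry, rose. Usp18 (−1.83), the brake on the interferon receptor, Stat2 (−1.36), a factor of the type I response, and Isg15 (−0.56) fell. The other probe set of Stat2 changed by −0.12 and did not pass. For Isg15 the call was lost with poly-A scaling and without DMSO 24 h replicate 2 or DMSO 72 h replicate 1. Among inflammatory genes Il33, an alarmin, was at least 1.23-fold higher on the probe set used, Icam1, a leukocyte ligand, rose by 1.15, and Ptgs2 (−2.29), cyclooxygenase 2, and the chemokine gene Cxcl1 (−1.42) were lower.

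The interferon-stimulated response element was read as the loose pattern TTTC, any 2 bases, TTTC on either strand. It was found in 9 of 13 antigen presentation genes (69.2%) and 15 of 21 interferon-stimulated genes (71.4%) tested with 1 window. Of the members called higher it was in 5 of 9 antigen presentation genes (55.6%) and 6 of 9 interferon-stimulated genes (66.7%). It was in 2.83% of tested genes and 3.92% of all windows. The stretches below are from 3 members that rose (RefSeq, GRCr8, gene's strand, pattern in capitals).
Lgals3bp, chr10:104127865-104127924, − strand: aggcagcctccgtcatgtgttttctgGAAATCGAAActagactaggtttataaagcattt
Ifitm3, chr1:205541769-205541828, − strand: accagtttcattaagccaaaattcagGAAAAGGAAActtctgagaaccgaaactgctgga
RT1-S3, chr20:2675390-2675449, + strand: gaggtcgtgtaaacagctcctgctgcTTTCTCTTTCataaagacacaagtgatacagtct

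Lysosomal genes were higher in 28 of 52 tested and lower in 8 (median 0.28), but in 4 and 2 with poly-A scaling (median 0.05), and in 20 and 2 without the low array (median 0.46). The share was highest among the hydrolases, 16 of 21, and 5 of 15 membrane and acidification genes were higher. Glb1, the lysosomal beta-galactosidase, read 12.15, 12.25 and 12.27 at 72 h and 10.63, 10.42 and 10.44 at 24 h (1.73 ± 0.089, adjusted p = 5.65e-10). Idua (1.73), which cuts glycosaminoglycans, and Man2b1 (1.61), a mannosidase, were next. Scarb2 (−1.38), the carrier of glucocerebrosidase to the lysosome, was lower. The E-box CACGTG, the core of the element bound by the lysosomal factor TFEB, was found in 12 of 41 tested members with 1 window (29.3%), in 5 of the 21 called higher (23.8%), in 10.5% of tested genes with 1 window and in 6.42% of all windows. Gaa, the lysosomal glucosidase, rose by 1.02, a call lost with poly-A scaling, and its other probe set changed by 0.28 and did not pass. The E-box is shown in capitals in the upstream regions of Glb1 and Gaa (RefSeq, GRCr8).
Glb1, chr8:122963592-122963651, + strand: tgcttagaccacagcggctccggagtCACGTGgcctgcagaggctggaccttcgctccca
Gaa, chr10:105028262-105028321, + strand: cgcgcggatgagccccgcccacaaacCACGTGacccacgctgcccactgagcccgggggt

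Proliferation genes were mixed. Mki67, the Ki-67 antigen of cycling cells, read 11.84, 11.93 and 11.91 at 72 h and 11.48, 11.87 and 11.66 at 24 h (0.22 ± 0.096, adjusted p = 0.057). Top2a, of chromosome separation, read 11.04, 11.20 and 11 at 72 h and 10.94, 11.14 and 10.82 at 24 h (0.11 ± 0.09, adjusted p = 0.29). In both genes the times overlap. Of 38 mitosis genes, 18 were lower and 5 higher (median −0.29; 6 and 0 with poly-A scaling, 3 and 1 without the low array), led by Zwilch (−1.04), Ccnb1 (−0.85), cyclin B1, Cenpe (−0.81), a kinetochore motor, and Cdc20 (−0.76), of whose 3 other probe sets 1 passed. The other probe set of Ccnb1 changed by −0.1 and did not pass. Ncaph, a condensin subunit, rose by 0.75. Of 42 replication genes, 13 were lower and 6 higher (2 and 0 with poly-A scaling, 2 and 3 without the low array). The largest falls were in the thymidylate enzymes Tyms (−1.41) and Tk1 (−1.31), while Pcna, the sliding clamp, rose by 0.25. The other Tk1 probe sets changed by −0.36, which did not pass, and by −0.51, which was called. Between 6 and 24 h, 34 of the mitosis and 39 of the replication genes were lower and 0 higher (medians −0.84 and −1.56), a comparison that shares the arrays at 24 h. Of all 9149 genes, 3663 were lower and 3010 higher in that interval.

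Among G1 regulators, Ccnd2, cyclin D2, read 10.92, 10.87 and 10.46 at 72 h and 12.56, 12.46 and 12.34 at 24 h (−1.70 ± 0.17), and the 2 groups do not overlap. Ccnd1, cyclin D1, fell by 0.40 on the probe set used. Of its other probe sets, 1 was called lower (−0.66) and 1 higher (0.31). The inhibitor gene Cdkn2c rose by 0.85 and Cdkn2d fell by 0.71. Cdkn1a, the p53-responsive inhibitor, did not pass on the probe set used (−0.22 ± 0.091, adjusted p = 0.052), but its other set was called at −2.23 (adjusted p = 3.73e-05). For Cdkn1b, which rose by 0.21 on the probe set used, another probe set fell by 2.32, so no direction is given for it. Of 16 p53 targets 7 were lower and 3 higher, with Gadd45a (−1.77) and Mdm2 (−0.99) lower. The other Mdm2 probe sets changed by −0.14, which did not pass, and by −2.85, which was called. Aen (1.14) was higher on the probe set used, with −0.07 and no call on its other set. Genes linked to FoxO factors and quiescence were higher in 14 of 23 and lower in 2 (median 0.57; 3 and 2 with poly-A scaling, 14 and 2 without the low array). Klf15, a glucocorticoid-responsive factor of fasting metabolism, read 8.41, 8.18 and 8.52 at 72 h and 6.06, 6.03 and 5.90 at 24 h (2.37 ± 0.11). Txnip, which restrains glucose uptake, read 13.51, 13.56 and 13.54 at 72 h and 11.59, 11.26 and 11.38 at 24 h (2.12 ± 0.07). Both rose on every array, while Sesn3, a FoxO target that restrains mTORC1, fell by 2.21.

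In the circadian clock 7 of 16 tested genes were higher and 2 lower (median 0.28, and 0.05 with poly-A scaling, where 4 and 2 passed, against 7 and 1 without the low array). Hlf, a clock output factor, read 6.70, 6.44 and 6.52 at 72 h and 2.46, 2.52 and 2.72 at 24 h, at least 5.87-fold higher (adjusted p = 9.27e-14). Per2 (1.66), Nr1d2 (1.28) and Cry2 (1.16), all repressors in the loop, rose, and Bmal1 (−0.81), its activator, and Bhlhe40 (−1.19) fell. Dbp, another output, read 7.85, 7.95 and 7.55 at 72 h and 7.90, 7.73 and 7.39 at 24 h and overlapped (adjusted p = 0.727). Sampling at 2 times that are a whole number of days apart gives no phase.

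Signalling genes moved singly more than as lists. Met, the receptor of hepatocyte growth factor, read 3.39, 3.59 and 3.06 at 72 h and 5.92, 6.16 and 5.82 at 24 h, at least 3.9-fold lower. Btc (−2.67), betacellulin, an EGF receptor ligand, was lower, and all 3 tested IGF binding proteins were higher, Igfbp6 by 1.5, Igfbp7 by 1.22 and Igfbp2 by 1.15. Inhbb, a subunit of activin, read 7.88, 7.86 and 8.19 at 72 h and 5.47, 6.35 and 5.32 at 24 h (2.26 ± 0.30), so the times do not overlap. Bmp2 (1.71), Bambi (1.37), a decoy receptor, and Smad3 (1.24) rose, within a TGF-beta and BMP list of 12 higher and 6 lower of 29 (5 and 1 with poly-A scaling, 9 and 0 without the low array). Of 19 WNT and Notch genes, 11 were higher and 3 lower (median 0.60). With poly-A scaling the counts were 3 and 1, and 11 and 0 without the low array. Those higher included the ligand Jag1 (1.49), Notch1 (1.27) and Tcf7l2 (1.09). Further probe sets of Tcf7l2 were called higher at 0.61, 1.2 and 0.95, while another changed by −0.66 and did not pass. Ptn, pleiotrophin, a heparin-binding growth factor, read 9.91, 10.03 and 10.16 at 72 h and 4.95, 5.16 and 4.29 at 24 h (5.23 ± 0.28).

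Genes of the actin programme run by SRF were lower in 10 of 20 and higher in 1. With the YAP targets, 13 of 37 were lower and 8 higher, and 6 and 0 with poly-A scaling (5 and 2 without the low array). Acta1, an actin, read 2.83, 3.06 and 2.85 at 72 h and 5.30, 5.89 and 5.36 at 24 h, at least 2.86-fold lower, and Actn1 (−0.92) and Acta2 (−0.79) fell. Of the YAP targets, Ankrd1 was at least 3.25-fold lower, while Ccn1 did not pass (−0.12 ± 0.087, adjusted p = 0.248) and Ccn2 passed at 0.14, with −0.08 under poly-A scaling. Wwtr1, which encodes the YAP partner TAZ, fell by 1.68. Atf3, an immediate stress factor, was at least 4.09-fold lower, with 3.02, 2.99 and 3.09 at 72 h and 5.80, 6.76 and 5.55 at 24 h. Of the NRF2 targets 8 of 27 were higher and 11 lower (3 and 7 with poly-A scaling, 7 and 6 without the low array). The higher ones were led by the glutathione transferases Mgst1, with 9.18, 9.10 and 9.18 at 72 h and 5.32, 5.24 and 3.97 at 24 h (4.31 ± 0.27), and Gsta1 (2.66). Hmox1, heme oxygenase 1, was at least 2.83-fold lower, and Nqo1, a quinone reductase, fell by 1.08. Ahr, the aryl hydrocarbon receptor, fell by 2.38 and its target Tiparp by 2.24, with a smaller called fall on the other Tiparp probe set (−0.37).

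The labelled cell type is poorly marked on these arrays at either time. Of 46 proximal tubule genes on the array, 33 were at or under log2 4 on all 6 arrays, among them the receptors Lrp2 and Cubn and the sodium-coupled carriers Slc34a1 and Slc5a2, and 9 were above it on all 6. Of the 13 that were tested, 4 were higher and 8 lower (1 and 6 with poly-A scaling, 4 and 6 without the low array). Aqp1, the water channel of the proximal tubule, read 6.95, 7.22 and 6.95 at 72 h and 2.13, 2.11 and 2.17 at 24 h, at least 8.23-fold higher (adjusted p = 1.21e-10). Ggt1, a brush border enzyme, read 3.45, 3.35 and 3.46 at 72 h and 6.83, 6.74 and 6.54 at 24 h, at least 6.5-fold lower, and Gatm, which makes the creatine precursor, fell by 2.57. Slc4a4 (−0.99), the bicarbonate carrier, was also lower. The summed linear signal of the list was 13205 to 14447 at 72 h and 18140 to 19120 at 24 h, most of it from Atp1b1, a sodium pump subunit that read 13.31 to 13.44 at 72 h and 13.77 to 13.87 at 24 h. Enpep, Ephx1, Emx2 and Aqp1 of the list were higher on every array at 72 h than on any at 24 h. Tight junction and polarity genes were higher in 8 of 11 and lower in 1 (in the whole junction and keratin list, 10 and 5 of 20, and 1 and 3 with poly-A scaling or 6 and 3 without the low array), led by Cgn, cingulin (1.73), while Krt8, keratin 8, fell by 0.77 and Cdh2, N-cadherin, by 1.14. Krt18, Cdh1 and Cdh16 did not pass the filter on low values.

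Markers of other cells that a culture might hold were mostly at background. At or under log2 4 on all 6 arrays were 8 of 12 fibroblast and smooth muscle, 7 of 9 endothelial, 7 of 10 leukocyte, 3 of 4 podocyte and 17 of 18 distal nephron genes. The summed linear signal of the fibroblast and smooth muscle list was 1126 to 1329 at 72 h and 1576 to 2110 at 24 h, most of it from Acta2, which read 9.83 to 10.07 at 72 h and 10.52 to 10.96 at 24 h. Its member Col1a1 was higher, at 7.24 to 7.5 at 72 h and 5.30 to 5.38 at 24 h. Pdgfrb was higher too, at 3.79 to 4.92 and 3.26 to 3.32, but above log2 4 on only 2 of the arrays at 72 h. Des was lower, at 3.55 to 3.7 at 72 h and 4.06 to 4.46 at 24 h. Of the 3 members tested, 1 was called higher and 2 lower. The part of such cells in the collagen rise was not tested. Such bulk values cannot tell fewer cells of a type from less RNA per cell.

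Chlorothalonil cultures passed through the same interval on arrays of their own. Between 72 and 24 h, 6667 of 9149 genes passed in chlorothalonil (72.9%), 3616 higher at 72 h and 3051 lower. The chlorothalonil counts of each list below are to be read against these counts of all genes. Of the 6667 genes, 3197 were called in the same direction in DMSO, and 1053 in opposite directions. The 3197 are 48.0% of the chlorothalonil calls and 57.6% of the DMSO calls. Over the 9149 genes the changes correlated at r = 0.48 (Pearson, across genes, which are not independent replicates, and of arrays that share one normalization). The change itself differed between chlorothalonil and DMSO in 5274 genes (57.6%), with 2551 of the differences positive and 2723 negative. With poly-A scaling 1253 were positive and 216 negative, and without the low array 1126 and 1055.

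**Figure D4:**
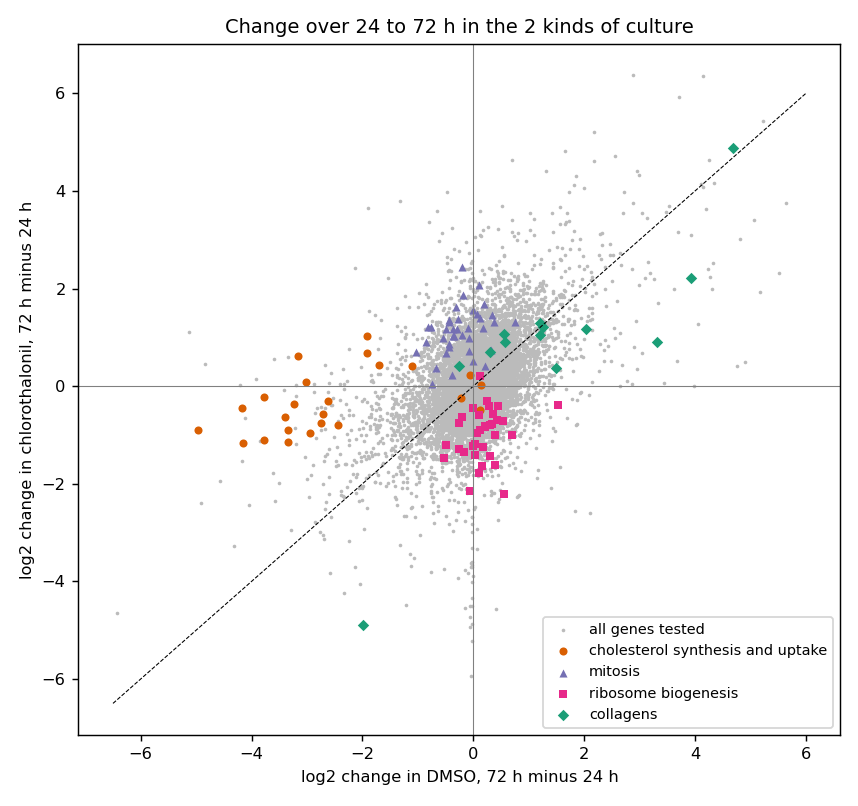
Log2 change between 72 h and 24 h in chlorothalonil (vertical) against DMSO (horizontal) for 9149 genes, with 4 lists marked and the line of equal change dashed. Sterol genes lie far left near 0 on the vertical axis, mitosis genes above 0, ribosome biogenesis genes below 0, and collagens mostly to the upper right.

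In the sterol list the courses differed in nearly every gene. Its median change was −0.40 in chlorothalonil and −2.85 in DMSO, and the difference of the changes was positive in 21 of 24 genes and negative in 1. Mvd changed by −0.90 in chlorothalonil and by −4.97 in DMSO, and Acss2 by 0.59 and −3.35. Aldoc changed by 0.45 in chlorothalonil and by −4.84 in DMSO (difference 5.30). For mitosis, 36 of 38 genes were higher at 72 h in chlorothalonil and 0 lower (median 1.18), against a median of −0.29 in DMSO, and the difference was positive in 35. Cdkn3, a mitotic phosphatase, changed by 2.42 in chlorothalonil and −2.14 in DMSO, and Pimreg, a mitotic regulator, by 3.66 and −1.90. In ribosome biogenesis 33 of 34 genes were lower in chlorothalonil (median −0.92), against 5 in DMSO, and the difference was negative in 33.

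Other lists had similar medians in both. Collagens were higher in 11 of 13 genes in chlorothalonil as well (median 1.04 in chlorothalonil and 1.20 in DMSO), though the difference was called in 9 of them, 4 positive and 5 negative. Col1a2 changed by 4.89 in chlorothalonil and 4.69 in DMSO, and Loxl1 by 3.76 in chlorothalonil, where it read 4.87 on average at 24 h. Amino acid and ATF4 genes were lower in 35 of 41 in chlorothalonil (median −0.91 in chlorothalonil and −0.73 in DMSO). Here too the difference was called in many members, positive in 9 and negative in 17. Txnip changed by 2.18 in chlorothalonil and 2.12 in DMSO. Aqp1 and Hlf passed as higher at 72 h in DMSO and not in chlorothalonil, and the difference of the changes was called. Their means in chlorothalonil at 72 h were 2.60 and 2.48, under the background level, against 7.04 and 6.55 in DMSO at 72 h.

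**Figure D5:**
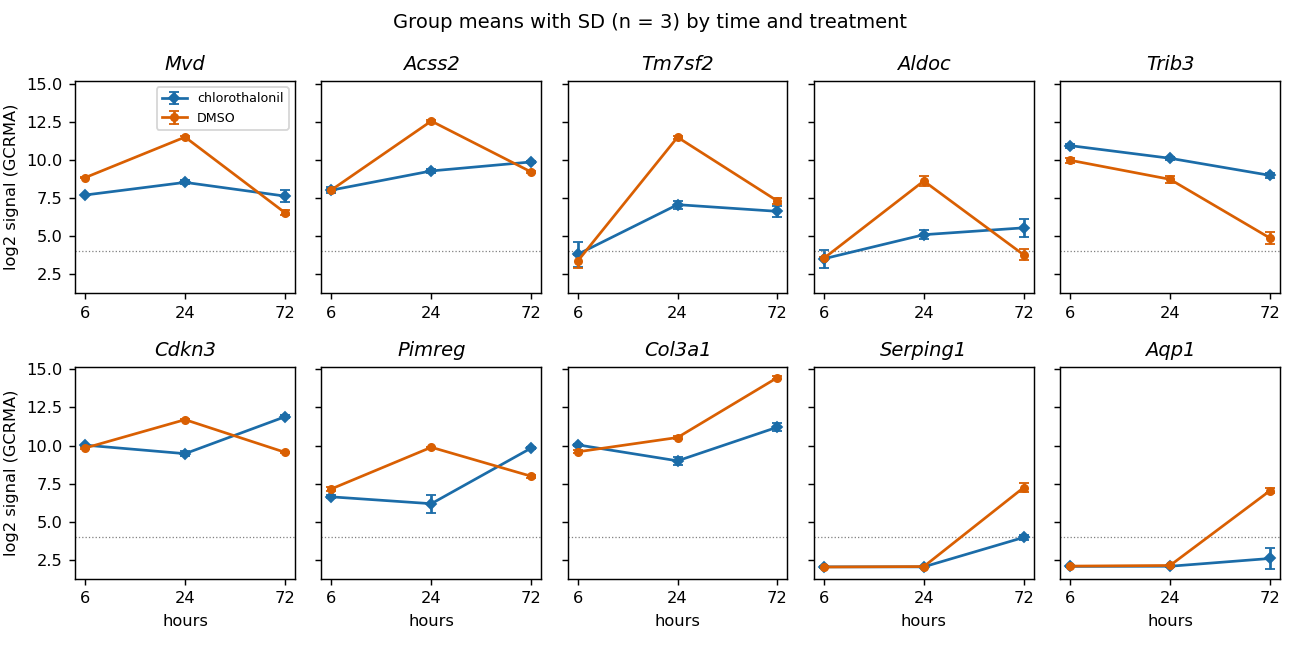
Group means with SD (n = 3) of 10 genes at 6, 24 and 72 h in chlorothalonil and DMSO, with the background level of log2 4 dotted. In DMSO, Mvd, Acss2, Tm7sf2 and Aldoc are highest at 24 h, where their chlorothalonil means lie lower; Serping1 and Aqp1 leave the background at 72 h in DMSO.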

How the data were processed

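Arrays were grouped by their titles. Per the submitters' processing notes, the authors made the deposited log2 values with GCRMA. Its version is not given in the sources used here. In its usual form it subtracts a background modelled from probe sequence and sets arrays to a common distribution, which removes a change shared by most transcripts. The table holds 31099 probe sets, of which 20832 have 1 gene symbol in the platform annotation, and values run from 0.915 to 16.05. Depth has no counterpart here, and the number of arrays limits the precision. A probe set was kept when above log2 4 in at least 3 of 18 arrays, and the set with the highest mean stood for its gene (9149 genes, 2600 of them with more than 1 set). All 18 arrays entered 1 model of 6 group means in limma 3.58.1 (R 4.3.3; 12 residual and 2.76 prior degrees of freedom), with two-sided p-values adjusted by Benjamini-Hochberg over 9149 genes and a threshold of 0.05, after a test on simulated data. Where all arrays of a group were at or under log2 4, the fold is a bound, the brighter group's mean against log2 4. Control transcripts were compared by exact permutation. Replicate numbers were not taken as pairs. The deviations of same-numbered arrays of the 2 times from their group means correlated at only −0.0056, −0.0753 and −0.0147.

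The genes named are the 12 highest and 12 lowest changes, the 5 largest called changes of each list, 5 per direction for the difference between chlorothalonil and DMSO, and a fixed set. Other members of the sterol, fatty acid, glycolysis, hypoxia, collagen, amino acid, matrix, lysosome and signalling lists that the text names (Sc5d, Srebf2, Scap, Abca1, Dgat1, Slc16a1, Pfkfb3, Vegfa, Hif1a, Atf4, Sars1, Aars1, Hspa5, Loxl2, Lama3, Igfbp2, Gaa, Slc4a4) were picked after their values were seen. Members and lists were chosen with earlier results of these data known, and no list was tested as a set. Promoter windows are those of RefSeq, GRCr8, with list members counted where their symbol has 1 window. Of the fixed set, Cdkn1c, Cdkn2b, Igfbp3, Igfbp5, Havcr1 and Lcn2 did not pass the filter.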

Additional observations from a re-analysis of the deposited data

Results flagged for a closer look

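The change between 24 and 72 h differed between chlorothalonil and DMSO cultures, by the test of that difference in the model over all genes, in 5274 genes, of which 1053 had been called in opposite directions in the 2 kinds of culture. Among the 5 largest differences in each direction, those with the higher change in chlorothalonil were Ropn1l (6.23), Pimreg (5.56), Aldoc (5.30), Rnf157 (5.12) and Cdkn3 (4.56). Those with the lower change in chlorothalonil were Hist4h4 (−5.89), Sdcbp2 (−5.19), Ppfibp2 (−4.98), the chemokine gene Ccl2 (−4.89) and the heat shock gene Hspa1a (−4.84). These last 5 genes were under log2 4 on every DMSO array at 72 h and 24 h. Their chlorothalonil means at 24 h were 8.22 for Hist4h4, 7.65 for Sdcbp2, 7.33 for Ppfibp2, 7.63 for Ccl2 and 10.32 for Hspa1a. At 72 h in chlorothalonil, Hspa1a averaged 5.45 and the other 4 were again under log2 4. The 5 negative differences are therefore computed from values under background, and neither their exact size nor their order is established. Ropn1l, a protein of sperm tails and motile cilia, read 5.25, 5.48 and 5.93 in DMSO at 72 h and 10.52, 10.57 and 10.94 in DMSO at 24 h.

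Probe sets without a single gene symbol were left out of the comparisons above. In a fit over all probe sets that passed the filter, 2417 of 3946 of them were called between DMSO at 72 h and 24 h (61.3%), 1758 higher and 659 lower, with log2 changes from −4.09 to 5.71. They are unnamed here.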

How the results depend on the processing

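Of 162 named genes that passed between DMSO at 72 h and 24 h, 127 kept call and direction under every alternative that gave a value. Over all 162, 3140 of 3228 alternative values kept both, 83 lost the call and 5 changed sign. The 5 largest differences in each direction between chlorothalonil and DMSO kept call and direction throughout. The differences of other single genes, such as Aqp1 and Hlf, were not compared across the alternatives.

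Scaling to the poly-A controls moved the counts most. It gave 1393 calls between DMSO at 72 h and 24 h against 5550 as deposited, 2962 between chlorothalonil at 72 h and 24 h, 1469 for the difference of the changes and 3033 between DMSO at 24 h and 6 h. Poly-A scaling without DMSO 24 h replicate 1, chosen after seeing the data, gave 3062 calls for the first of these and 2181 for the difference. Leaving out 1 array at a time gave 4969 to 5274 calls for the first. Samples of one number did not deviate together, and with the replicate number as a block 5464 genes passed.

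Under poly-A scaling the sign turned for the medians of fatty acid oxidation (−0.05), ribosomal proteins (−0.09), ribosome biogenesis (−0.06), TGF-beta and BMP (−0.15), interferon-stimulated genes (−0.19) and junctions and keratins (−0.02), and for Scap (−0.09), Hif1a (−0.06), Mki67 (−0.00), Clu (−0.08), Top2a (−0.11), Cdkn1b (−0.01), Dbp (−0.11) and Ccn2 (−0.08). Under that scaling without DMSO 24 h replicate 1 it turned for the medians of DNA replication (0.06), the tricarboxylic acid cycle and respiratory chain (0.17), NRF2 targets (0.09) and YAP and SRF targets (0.11), and for Srebf1 (0.03) and Ccn1 (0.03). The median of interferon-stimulated genes was also negative with probe sets averaged (−0.08), median centring (−0.01) and quantile normalization (−0.02), and that of junctions and keratins with probe sets averaged (−0.06). The medians of the other 18 of 28 lists kept their sign. Cdkn1b changed by −1.05 with its probe sets averaged, and Il33 by −0.04 with no filter, where another probe set stands for it. Leaving out 1 array at a time, Dbp ran from −0.03 to 0.23. Apart from Cdkn1b with probe sets averaged, none of the turned gene values passed the test. Of 99 further probe sets of called named genes, 80 had the sign of the set used, 64 of them called, and 19 the opposite one, 6 of them called. The cause was not tested beyond the change of probe set. With 3 arrays a group, and signals near background, changes of low genes are bounds.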
